A study of Mus musculus with 6 samples.

Results

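Opposite-strand genes carry the name of a neighbouring gene with the ending "os" because they are transcribed from the other DNA strand. They were taken from the normalized read count table of activated mouse B cells by that name alone: the symbol had to end in "os" or in "os" and digits, and the symbol without this ending had to be another gene of the table. 1 gene that met these terms was set aside and is not reported here. The rule gave 301 genes among 55421 in the table, with 298 distinct symbols, beside 256 sense genes. All 256 sense genes were protein coding in the GENCODE vM21 annotation (GRCm38), and each of the 301 genes lay on the strand opposite to its sense gene. Most but not all were non-coding: 285 were lncRNAs, 11 were annotated as protein coding, and 5 had other types, so the set is called opposite-strand genes rather than lncRNAs.

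RNA was sequenced from splenic B cells 24 h after activation in culture with LPS at 5 µg/ml and IL-4 at 5 ng/ml. The 3 hnRNPL-deficient libraries came from mice with CD21-cre and both *Hnrnpl* alleles floxed (F/F), and the 3 control libraries, called WT, came from mice with CD21-cre and intact *Hnrnpl*, 1 mouse per library, male or female and older than 6 weeks. The controls thus carried Cre as well, and both groups carried the Rosa mT/mG reporter, whose GFP marks cells that have had Cre activity and was used to sort the cells. CD21-cre acts mostly in peripheral B cells but also in other tissues during development. Libraries were made from polyadenylated RNA, so transcripts without a poly(A) tail were not measured.

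In textbook accounts, many mammalian promoters start transcription in both directions, and the RNA made away from the coding gene is often short-lived, poorly spliced and removed by the nuclear exosome. Some such RNAs are stable, spliced and polyadenylated lncRNAs. Others lie inside or across the coding gene, where they can be complementary to its mRNA. hnRNPL is an RNA-binding protein of the nucleus that prefers CA-rich RNA and is known for its roles in splicing and transcript stability.

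Each library had 40395186 to 75180749 reads on genes and 24009 to 26283 genes with a read. *Hnrnpl* itself had 24174 to 25580 normalized counts in WT libraries and 1297 to 2178 in hnRNPL-deficient libraries, so the mean fell to 6.74% of WT. The B cell genes *Cd79a*, *Cd79b*, *Ms4a1*, *Cd22*, *Pax5* and *Cr2* were all tested, with summed counts of 259306 to 342411 in WT and 247495 to 301471 in hnRNPL-deficient libraries, and *Cr2* was called higher. The 5 T cell genes together had at most 11.7 normalized counts in any library. Among the 4 myeloid genes, with sums of 260 to 331 in WT and 1239 to 1382 in hnRNPL-deficient libraries, *Adgre1* made nearly all of the sum and was called higher, whereas *Lyz2* was at 0 in all WT libraries and reached at most 2.02. Of 3 plasma cell genes, with sums of 1640 to 1838 and 1389 to 1907, *Jchain* was called lower. The 3 red blood cell genes summed to 8.41 to 19.7 in WT and 38.8 to 57.5 in hnRNPL-deficient libraries, nearly all of it *Hbb-bt*, which was called higher. *Hbb-bt* and *Adgre1* moved with genotype as the genes described here did, and their part in these results was not tested.

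15 opposite-strand genes were higher in hnRNPL-deficient B cells and 4 were lower. The 15 were *Zmiz1os1*, *Stamos*, *Fbxl12os*, *Cep83os*, *Etaa1os*, *Phf2os1*, *Appbp2os*, *Phtf1os*, *Zfp85os*, *Ccpg1os*, *Mkln1os*, *Atad3aos*, *Arhgap27os3*, *Man2c1os* and *Sp3os*. The 4 were *Slc36a3os*, *Zbtb11os1*, *N4bp2os* and *Lrrc75aos2*. Log2 fold changes of the 15 ran from 0.73 to 2.55, with a median of 1.24, whereas their sense genes ran from -0.39 to 0.53, with a median of -0.07. All 15 sense genes were tested and none was called, beside 7.28% of all tested genes called higher and 4.08% called lower. Of the 15, 6 had a log2 fold change above 0 and 9 below. A gene was tested where its mean over the 6 libraries reached 10 normalized counts, and was called where limma gave an adjusted p under 0.1, with adjustment over all 17640 tested genes, and a fold change of at least 1.5 on the scale of log2(normalized count + 1), with 3 libraries in each group.

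Only 56 of the 301 opposite-strand genes reached that mean. Those called higher were 26.8% of the 56, beside 7.28% of all tested genes, and those called lower were 7.14%, beside 4.08%. Passing the mean was easier for a gene that is high in one group. *Zmiz1os1* passed with a WT mean under 10, and 2 genes, one of them *Slc36a3os*, passed with an hnRNPL-deficient mean under 10, so these shares describe the tested genes and not the 301. The median log2 fold change of the 56 was 0.24, with 40 above 0, whereas the median of all tested genes was -0.03. The 3 libraries of one group lay wholly above the other for 21 of the 56 genes in the hnRNPL-deficient direction (17.7% of all tested genes) and for 6 in the WT direction (16.3%), and all 19 called genes were among them.

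Other non-coding genes showed a similar tilt. Of 1379 other tested lncRNA genes, 231 were called higher (16.8%) and 54 lower (3.92%), with a median log2 fold change of 0.22. Of 11554 protein-coding genes outside the set, 918 were called higher (7.95%) and 561 lower (4.86%), with a median of -0.01. The 56 opposite-strand genes had a median level of 57.4 normalized counts and the other lncRNAs 43.2, against 1303 for the protein-coding genes.

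**Figure D1:**
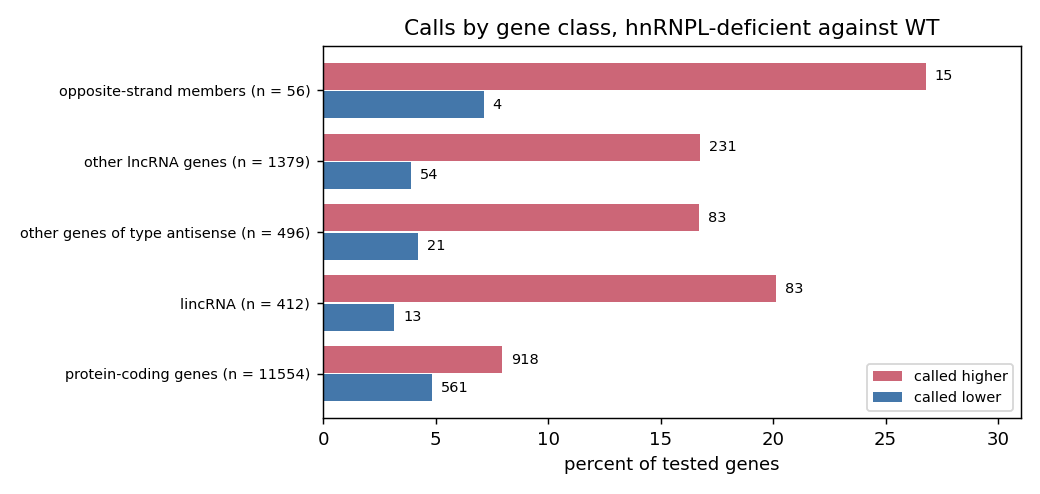
Percentage of tested genes called higher (red) or lower (blue) in hnRNPL-deficient against WT B cells, by gene class, with the number of called genes at the end of each bar and the number tested after each class name; the antisense and lincRNA types are part of the other lncRNA genes. The opposite-strand genes, at 26.8% higher, and the other lncRNAs, at 16.8%, both stand above the 7.95% of protein-coding genes.

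The pairs that start back to back are shown first, because 8 of the 15 genes that rose had this layout in RefSeq. RefSeq start windows (250 bases before to 50 bases after a start, build GRCm38.p6) were matched by symbol for 182 of the 301 opposite-strand genes, and for 12 of the 15 that rose the sense gene had one too. In 8 of these 12 pairs the starts pointed away from each other with at most 200 bases between them, from 45 to 176. That was so in 2 of the 15 pairs with both windows among tested genes that were not called, in 14 of 120 among genes under the mean of 10, and in neither of the 2 such pairs among genes that fell. Below, each of 7 such stretches is written 5′ to 3′ on the strand of the opposite-strand gene. The capitals at the right end are the first 30 bases of the opposite-strand transcript, and the capitals at the left end are the complement of the first 30 bases of the sense transcript; the lower-case bases between them belong to neither in RefSeq, whose starts can differ from those of GENCODE.
Appbp2os (chr11:85235091-85235195, plus strand): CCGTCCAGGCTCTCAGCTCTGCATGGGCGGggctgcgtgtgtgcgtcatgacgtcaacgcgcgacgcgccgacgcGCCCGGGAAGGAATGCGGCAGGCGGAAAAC
Mkln1os (chr6:31398744-31398857, minus strand): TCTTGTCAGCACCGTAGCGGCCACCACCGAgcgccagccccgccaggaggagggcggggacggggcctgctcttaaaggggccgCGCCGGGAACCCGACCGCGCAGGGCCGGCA
Phf2os1 (chr13:48870856-48870980, plus strand): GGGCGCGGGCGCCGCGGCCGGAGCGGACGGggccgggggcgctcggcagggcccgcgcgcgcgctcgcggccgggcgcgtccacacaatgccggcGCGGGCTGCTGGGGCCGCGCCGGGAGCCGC
Etaa1os (chr11:17953846-17953999, plus strand): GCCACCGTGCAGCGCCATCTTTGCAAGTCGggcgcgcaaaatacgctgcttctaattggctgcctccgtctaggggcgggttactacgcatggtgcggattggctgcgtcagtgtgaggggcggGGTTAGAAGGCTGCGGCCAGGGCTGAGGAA
Ccpg1os (chr9:72985347-72985533, minus strand): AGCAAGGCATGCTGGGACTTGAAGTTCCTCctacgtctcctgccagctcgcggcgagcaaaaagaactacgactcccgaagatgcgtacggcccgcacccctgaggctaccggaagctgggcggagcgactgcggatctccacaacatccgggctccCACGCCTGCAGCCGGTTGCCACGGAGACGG
Stamos (chr2:14073905-14074129, minus strand): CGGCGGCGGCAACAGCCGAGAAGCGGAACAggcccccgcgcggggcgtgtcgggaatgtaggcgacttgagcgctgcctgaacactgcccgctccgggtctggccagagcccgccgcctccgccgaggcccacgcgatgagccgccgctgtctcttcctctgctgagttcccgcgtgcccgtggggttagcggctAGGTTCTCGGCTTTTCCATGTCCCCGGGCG
Cep83os (chr10:94688584-94688819, minus strand): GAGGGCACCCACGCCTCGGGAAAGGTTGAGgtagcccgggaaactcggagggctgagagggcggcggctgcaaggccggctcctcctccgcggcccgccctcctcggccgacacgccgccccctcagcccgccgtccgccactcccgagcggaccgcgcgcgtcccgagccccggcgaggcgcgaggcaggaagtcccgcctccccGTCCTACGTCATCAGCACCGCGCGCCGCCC

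Cep83os and *Cep83* had 27 CpG dinucleotides in the 176 bases between their starts, which were 79.5% G and C, and Stamos and *Stam* had 21 in 165 bases. Those were the longest stretches, whereas *Mkln1os* had 5 in 54 bases and *Arhgap27os3* 1 in 50. By the richest 300-base start window of each gene, the 8 opposite-strand genes had 8 to 63 CpG, beside a median of 8 over all genes with a window. In the 300-base start windows of the 8 opposite-strand genes, the letters TATAAA were found on neither strand, whereas they occurred on one or other strand in 15.7% of 27025 genes with a window. GGGCGG, the core of a GC box, was present on one or other strand for 6 of the 8 genes, compared with 38.2% of all genes. CCAAT was present for 1, *Etaa1os*, compared with 41.1%. These are matches of letters and were not measured as bound sites. The eighth pair, *Arhgap27os3* and *Arhgap27*, starts back to back only from a second RefSeq start of *Arhgap27*; in GENCODE the gene begins 18939 bases inside it.

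*Cep83os* was the most abundant of the genes that rose with a paired start. It is a 3-exon transcript of 6566 exonic bases on chromosome 10, 94671025 to 94688576, annotated as a bidirectional promoter lncRNA beside *Cep83*, which encodes a protein of the centriole's distal appendages. *Cep83os* had 455, 426 and 442 normalized counts in WT libraries and 1515, 1206 and 1208 in hnRNPL-deficient libraries. The groups were far apart, with little spread within either. Its log2 fold change was 1.56 ± 0.13 (SE; adjusted p = 0.000475, limma). *Cep83* had 2681, 2122 and 1975 normalized counts in WT and 2210, 2107 and 2178 in hnRNPL-deficient libraries, with groups that overlapped and a log2 fold change of -0.05 ± 0.13. In counts per exonic kilobase, *Cep83os* thereby went from 21.6% of *Cep83* in WT to 66.9% in hnRNPL-deficient cells.

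*Etaa1os*, a 4-exon antisense RNA on chromosome 11 (17953970 to 17959578) beside *Etaa1*, which encodes an activator of the DNA damage kinase ATR, had 38.3, 45.8 and 55.1 normalized counts in WT libraries and 147, 110 and 129 in hnRNPL-deficient libraries. It rose by a log2 fold change of 1.46 ± 0.25 (adjusted p = 0.00904, limma). *Etaa1* moved the other way without passing the test: 2757, 2099 and 1887 in WT against 1956, 1582 and 1652 (log2 fold change -0.37 ± 0.16), and its groups overlapped.

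*Stamos* on chromosome 2 (14070332 to 14073934) starts 164 bases from *Stam*, an adaptor of endosomal sorting. It had 15.1, 10.4 and 6.12 normalized counts in WT libraries and 34.3, 46.4 and 39.7 in hnRNPL-deficient libraries, low in all 6 but apart between groups (log2 fold change 1.90 ± 0.39, adjusted p = 0.019, limma). *Stam* had 1538, 1472 and 1419 against 1600, 1558 and 2053. The hnRNPL-deficient libraries of *Stam* were all above WT, mainly through 1 library, but its change of 0.22 ± 0.13 did not pass the test.

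*Phf2os1* on chromosome 13 (48871112 to 48875460) starts 7 bases inside *Phf2* by the GENCODE starts, a histone H3K9 demethylase gene. It had 24.4, 26.8 and 24.5 normalized counts in WT libraries and 73.9, 62.6 and 76.8 in hnRNPL-deficient libraries. The WT libraries were nearly equal and every hnRNPL-deficient library was well above them (log2 fold change 1.46 ± 0.26, adjusted p = 0.0106, limma). *Phf2* stood between 4593 and 5086 in all 6 libraries, with a log2 fold change of -0.07 ± 0.09.

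*Ccpg1os* on chromosome 9 (72979722 to 72985382) is the only one of the 15 annotated as protein coding and the only one above its sense gene per kilobase in WT cells. It had 117, 89.1 and 97.1 normalized counts in WT libraries and 252, 204 and 222 in hnRNPL-deficient libraries (log2 fold change 1.16 ± 0.20, adjusted p = 0.00967, limma). *Ccpg1*, which encodes a receptor for autophagy of the endoplasmic reticulum, had 37.1, 72.6 and 55.1 against 76.6, 74.7 and 79.5. Its hnRNPL-deficient libraries all lay above WT as well, so both partners of this pair were on the same side (*Ccpg1*: log2 fold change 0.53 ± 0.29, adjusted p = 0.285, limma).

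*Appbp2os* on chromosome 11 (85234775 to 85238304), across the start of the ubiquitin ligase receptor gene *Appbp2*, had 40.6, 61.4 and 50.5 normalized counts in WT libraries and 144, 141 and 89.1 in hnRNPL-deficient libraries (log2 fold change 1.27 ± 0.29, adjusted p = 0.0264, limma). *Mkln1os* on chromosome 6 (31366885 to 31398773) overlaps *Mkln1*, a subunit gene of the CTLH ubiquitin ligase, by a few bases at the GENCODE starts. It had 16.2, 25.9 and 34.4 in WT against 43.3, 50.5 and 72.6 (log2 fold change 1.12 ± 0.37, adjusted p = 0.0877, limma). The groups of both opposite-strand genes were apart, but those of *Mkln1os* only narrowly. *Atad3aos* on chromosome 4 (155761178 to 155769264), which starts 85 bases from *Atad3a*, an ATPase gene of the mitochondrial inner membrane, had 16.2, 18.2 and 13.8 against 29.8, 33.3 and 38.4 (log2 fold change 1.03 ± 0.31, adjusted p = 0.0687, limma). *Appbp2*, *Mkln1* and *Atad3a* had log2 fold changes of -0.11 ± 0.15, 0.18 ± 0.13 and -0.26 ± 0.13, and the groups of all 3 overlapped.

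**Figure D2:**
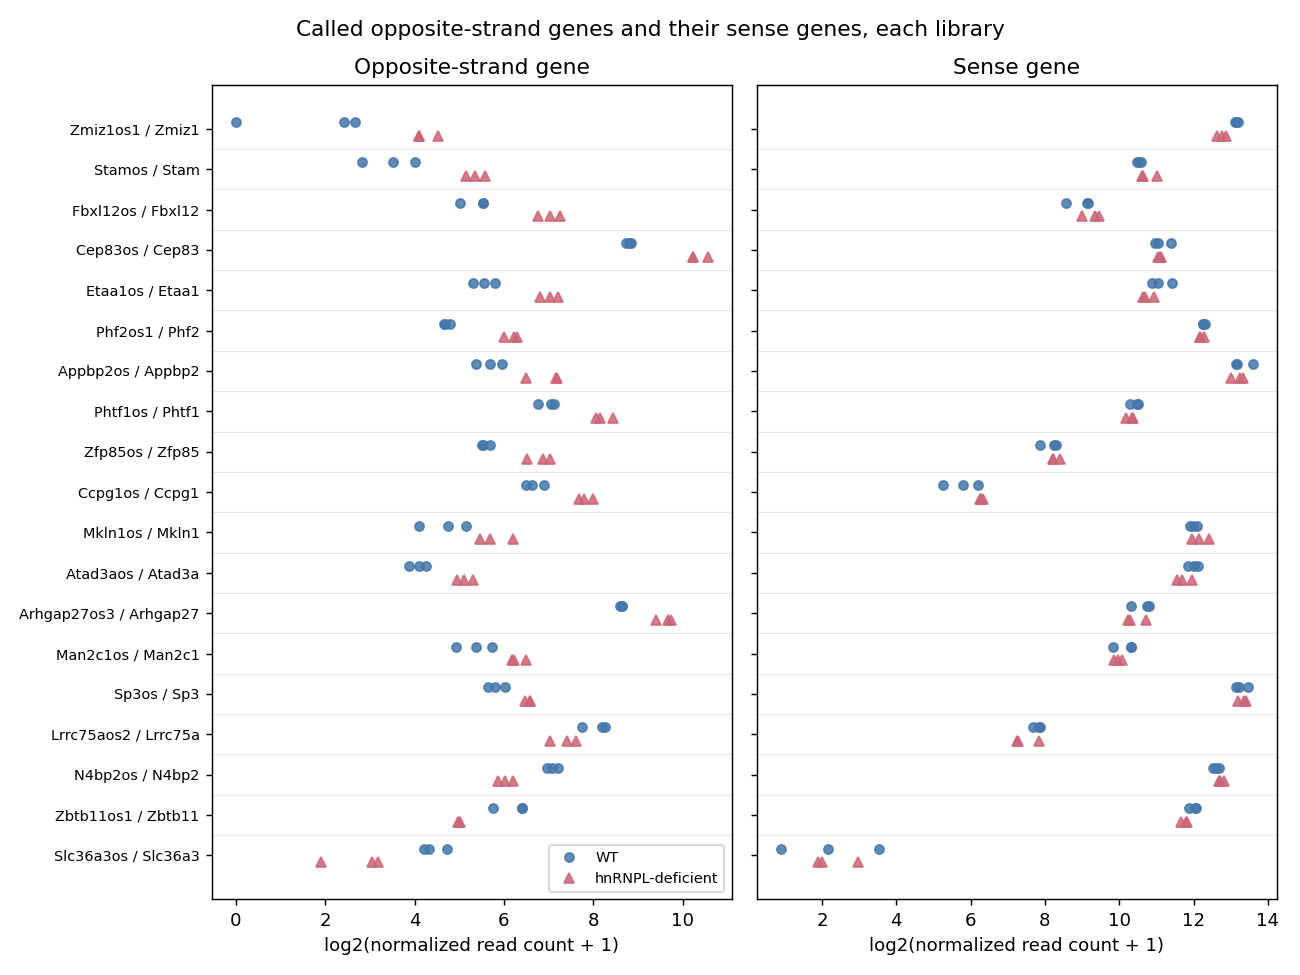
Log2(normalized read count + 1) of the 19 called opposite-strand genes (left) and of their sense genes (right) in each library, with WT as blue circles and hnRNPL-deficient as red triangles. Groups are apart for all 19 genes on the left, whereas sense genes on the right mostly overlap and those of the 15 genes that rose have log2 fold changes between -0.39 and 0.53.

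Over all 15 genes that rose, 10 started within 1000 bases of the sense gene's start in the GENCODE annotation, with a median distance of 355 bases. Among the 37 tested genes that were not called, 14 did, with a median of 6412 bases. Read the other way, of 26 tested genes with starts within 1000 bases 10 rose and 2 fell, with a median log2 fold change of 0.48, and of 30 with starts further apart 5 rose and 2 fell, with a median of 0.13. By layout, 5 of the 15 were head to head without overlap, 7 overlapped the sense gene at the 5′ ends, and 1 each lay inside it, spanned it, and lay tail to tail with it. None of the 15 overlapped its sense gene at the 3′ ends, a layout of 8 of the 37 that were not called. Starts are those of the annotation and were not measured in these cells.

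**Figure D3:**
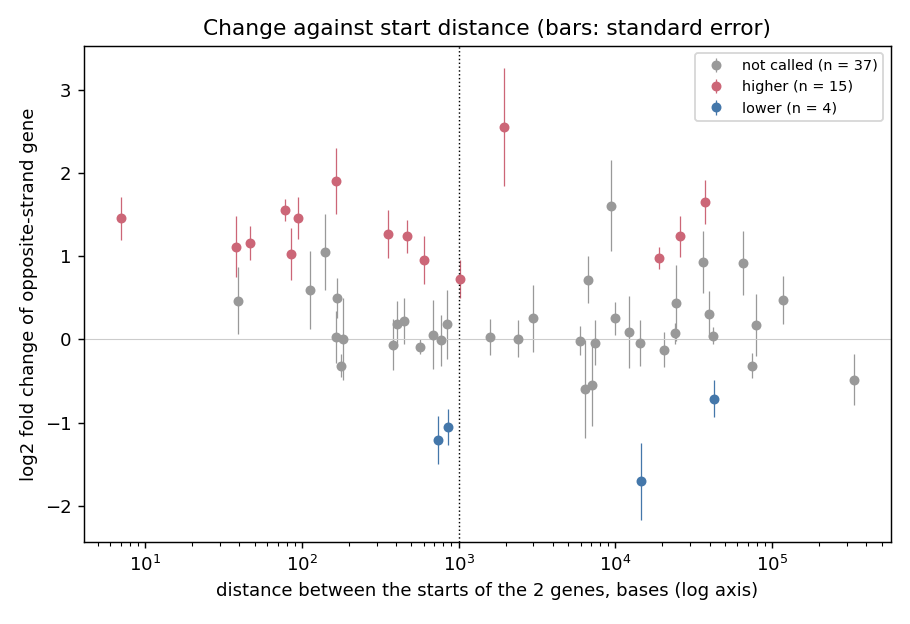
Log2 fold change (± SE) of the 56 tested opposite-strand genes against the distance between the annotated starts of the 2 genes of a pair, on a log axis, with genes called higher in red, lower in blue and not called in grey. To the left of the dotted line at 1000 bases lie 26 genes, 10 of them called higher, and to the right 30 genes, 5 of them called higher.

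The remaining genes that rose overlap the sense gene at the 5′ ends or lie inside, around or behind it. *Arhgap27os3* on chromosome 11 (103344753 to 103350124), inside the GTPase-activating protein gene *Arhgap27*, had 398, 388 and 395 normalized counts in WT libraries and 681, 812 and 850 in hnRNPL-deficient libraries (log2 fold change 0.98 ± 0.14, adjusted p = 0.00398, limma). *Arhgap27* itself had a log2 fold change of -0.21 ± 0.18. Per exonic kilobase, *Arhgap27os3* went from 58.3% of *Arhgap27* to 134%, so that it passed its sense gene in hnRNPL-deficient cells.

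*Fbxl12os* on chromosome 9 (20607458 to 20617271) lies tail to tail with *Fbxl12*, an F-box gene of an SCF ubiquitin ligase, 846 bases from its end. It had 45.3, 45.0 and 31.4 normalized counts in WT libraries and 151, 107 and 129 in hnRNPL-deficient libraries (log2 fold change 1.65 ± 0.27, adjusted p = 0.00704, limma). *Fbxl12* had a log2 fold change of 0.32 ± 0.20, with overlapping groups. *Phtf1os* on chromosome 3 (103964536 to 103968581), an RNA of 1 exon across the start of *Phtf1*, had 138, 107 and 131 against 264, 282 and 348 (log2 fold change 1.24 ± 0.20, adjusted p = 0.00684, limma). *Phtf1* was at -0.14 ± 0.12, and again the opposite-strand gene alone was called.

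*Zfp85os* on chromosome 13 (67729262 to 67756838) spans the zinc finger gene *Zfp85*. It had 45.3, 50.1 and 44.4 normalized counts in WT libraries and 91.1, 116 and 130 in hnRNPL-deficient libraries (log2 fold change 1.24 ± 0.24, adjusted p = 0.0158, limma), with *Zfp85* at 0.14 ± 0.18. *Man2c1os* on chromosome 9 (57099950 to 57131290), across the start of the cytosolic alpha-mannosidase gene *Man2c1*, had 40.6, 29.4 and 52.0 against 71.2, 73.7 and 89.1 (log2 fold change 0.95 ± 0.29, adjusted p = 0.0708, limma). *Sp3os* on chromosome 2 (72979424 to 72988677) is the smallest of the 15 changes, beside *Sp3*, a transcription factor that binds GC boxes. It had 48.7, 64.0 and 54.3 against 94.7, 87.8 and 94.6 (log2 fold change 0.73 ± 0.23, adjusted p = 0.0812, limma). *Man2c1* and *Sp3* stood at -0.19 ± 0.16 and 0.04 ± 0.11.

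*Zmiz1os1* on chromosome 14 (25257523 to 25461128) had the largest fitted change on the lowest counts: 0, 4.32 and 5.35 normalized counts in WT libraries and 16.2, 16.2 and 21.9 in hnRNPL-deficient libraries (log2 fold change 2.55 ± 0.71, adjusted p = 0.0533, limma). It overlaps *Gm26660* on its own strand, the only such overlap among the 19 called genes, so reads in shared sequence could count for either. *Zmiz1*, a transcriptional coactivator gene of the PIAS family, had 8848, 9291 and 9087 against 6978, 7433 and 6353. Its hnRNPL-deficient libraries were all lower, with an adjusted p of 0.0325 from limma, but the log2 fold change of -0.39 ± 0.09 was smaller than the fold a call required.

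Calls for 10 of the 15 genes that rose were made in each of the 6 fits that left out 1 library. *Atad3aos*, *Man2c1os*, *Mkln1os* and *Sp3os* were called in none of those 6 fits, and *Zmiz1os1* only in the 3 without a WT library, so the first 4 calls needed all 6 libraries and that of *Zmiz1os1* all 3 hnRNPL-deficient ones.

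CA runs are shown next, since hnRNPL prefers CA-rich RNA. Transcript sequences were searched on their own strand for CACACACA, that is 4 or more CA units in a row. Such a run stood in at least 1 transcript of 7 of the 15 genes that rose, of none of the 4 that fell, and of 2 of the 37 that were tested and not called. Among genes under the mean of 10 it stood in 38 of 245. Among other tested lncRNAs the shares were 31.6% of the 231 called higher, 22.2% of the 54 called lower, and 15.4% of the 1094 not called. Longer transcripts have more room for such runs, and the median longest transcript was 1910 bases for the 15 genes and 1661 for the 37. For genes with a run of at least 6 units, 1 run per gene, its longest, is given here with 6 bases on either side. The run is in capitals and the flanks are in lower case, with the coordinates of the run in GRCm38.
Cep83os (chr10:94672682-94672695, minus strand): caaagtCACACACACACACAgtggct
Fbxl12os (chr9:20608287-20608300, plus strand): atggtaCACACACACACACAgtagaa
Stamos (chr2:14073407-14073420, minus strand): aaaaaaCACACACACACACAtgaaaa
Zmiz1os1 (chr14:25460302-25460313, minus strand): cgcgcgCACACACACACAgacaca

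The run shown for *Cep83os* lay 4896 bases into its transcript of 6566 bases. That shown for *Stamos* lay 429 bases into a transcript of 1361, which held 2 runs of at least 4 units. *Arhgap27os3*, *Mkln1os* and *Zfp85os* had runs of 4 units. The other 8 genes that rose, *Etaa1os*, *Phf2os1* and *Phtf1os* among them, had no run of this length, and binding of hnRNPL was not analysed here.

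The 4 genes that fell were low to moderate in level. *N4bp2os* on chromosome 5 (65760991 to 65764379), across the start of *N4bp2*, had 124, 147 and 134 normalized counts in WT libraries and 72.1, 57.5 and 64.4 in hnRNPL-deficient libraries (log2 fold change -1.05 ± 0.22, adjusted p = 0.019, limma). *N4bp2* had 6516, 6270 and 5834 against 7168, 6611 and 6742, a log2 fold change of 0.14 ± 0.09 that did not pass. The 2 genes thus moved to opposite sides, but only the opposite-strand gene was called.

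*Zbtb11os1* on chromosome 16 (55973268 to 55974617), an RNA of 1 exon across the start of the zinc finger gene *Zbtb11*, had 53.4, 83.9 and 84.1 in WT libraries and 30.7, 31.3 and 30.2 in hnRNPL-deficient libraries (log2 fold change -1.21 ± 0.29, adjusted p = 0.0309, limma). *Zbtb11* was at -0.23 ± 0.10, all hnRNPL-deficient libraries below WT. *Slc36a3os* on chromosome 11 (55137044 to 55140193) had 17.4, 19.0 and 25.2 against 7.21, 8.08 and 2.74 (log2 fold change -1.71 ± 0.46, adjusted p = 0.0489, limma), and its sense gene, of the proton-coupled amino acid transporter family, did not exceed 10.7 in any library and was not tested. *Lrrc75aos2* on chromosome 11 (62605766 to 62607748) had 291, 306 and 213 against 195, 170 and 130 (log2 fold change -0.71 ± 0.23, adjusted p = 0.0807, limma), with *Lrrc75a* at -0.34 ± 0.21.

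*N4bp2os* was called in each of the 6 fits that left out 1 library. *Zbtb11os1* and *Slc36a3os* were not called without WT replicate 2 or without WT replicate 3, and *Lrrc75aos2* was called in 1 of the 6, so without either of these WT libraries 1 gene remained called lower.

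To ask whether a pair changed unequally, the log2 ratio of the opposite-strand gene to its sense gene was taken in each library and fitted with limma over 3727 pairs of tested genes on opposite strands, adjusted over all of them. Both genes were tested in 53 of the 301 pairs. The ratio was higher in hnRNPL-deficient cells in 15 of the 53 (28.3%) and lower in 2 (3.77%), beside 23.1% of all 3727 pairs called either way. For 944 other pairs of a lncRNA and a protein-coding gene, the ratio was called higher in 24.7% and lower in 5.4%. The share of the 53 pairs was thus near that of other lncRNA and coding pairs.

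The ratio was called for 13 of the 15 genes that rose. These 15 were picked by their rise in the same libraries, and none of their sense genes was called. A higher ratio thus largely follows from that choice and is no separate test. *Cep83os* over *Cep83* rose by 1.61 ± 0.17 on the log2 scale (adjusted p = 0.00206, limma), *Phf2os1* over *Phf2* by 1.52 ± 0.22 (adjusted p = 0.00619, limma) and *Etaa1os* over *Etaa1* by 1.82 ± 0.29 (adjusted p = 0.00753, limma). The exceptions were *Ccpg1os*, with a ratio change of 0.63 ± 0.32 (adjusted p = 0.223, limma), and *Sp3os*, with 0.69 ± 0.25 (adjusted p = 0.104, limma). Of the genes that fell, *N4bp2os* (ratio change -1.19 ± 0.21, adjusted p = 0.01, limma) and *Zbtb11os1* (-0.98 ± 0.27, adjusted p = 0.048, limma) fell relative to the sense gene too, whereas the ratio of *Lrrc75aos2* changed by -0.37 ± 0.16 and was not called. In the 6 fits that left out 1 library, the ratio of *Zbtb11os1* was called in 2 and that of *Mkln1os* in 1. Ratios of *Appbp2os* and *Fbxl12os* were called in 4 and 5, and the other called ratios of these genes in all 6.

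In 2 further pairs the ratio was called though the opposite-strand gene was not. *Slfn5os* had 20.9, 6.05 and 22.9 normalized counts in WT libraries and 51.4, 27.3 and 69.9 in hnRNPL-deficient libraries, while *Slfn5*, of the Schlafen family, had 7247, 7425 and 8361 against 5996, 5709 and 5912. Both genes had groups apart, in opposite directions, and the ratio rose by 1.99 ± 0.54 (adjusted p = 0.0468, limma). The other was *Oip5os1* and *Oip5*, described below with the most abundant genes.

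Across the 53 pairs the log2 fold changes of the 2 genes had a Pearson r of 0.06 and a Spearman coefficient of 0.11, given as a description because all pairs share the same 6 libraries. The sign was the same in 29 of the 53. In no pair were both genes called, but this could have occurred in at most 2 pairs, since only 2 opposite-strand genes of called sense genes were tested.

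**Figure D4:**
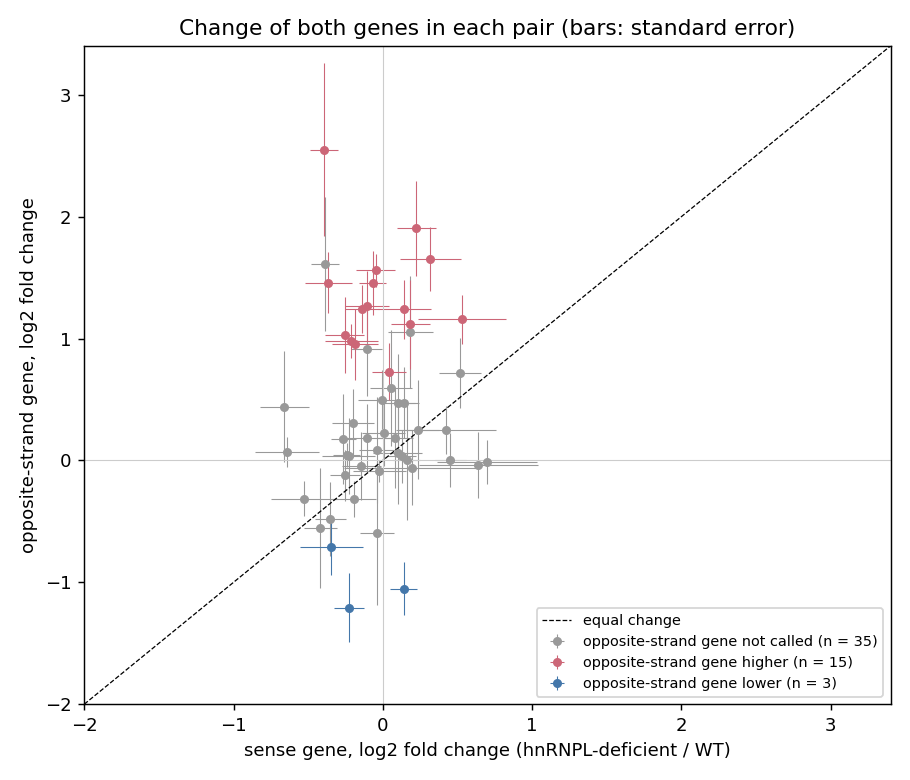
Log2 fold change (± SE) of the opposite-strand gene (vertical axis) against that of its sense gene (horizontal axis) for the 53 pairs with both genes tested, coloured by the call of the opposite-strand gene, with a dashed line of equal change. The 15 genes called higher stand above the line, over sense genes with log2 fold changes from -0.39 to 0.53, and Pearson's r over all 53 is 0.06.

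Opposite-strand genes were mostly far below their sense genes. On the scale of normalized counts per exonic kilobase, the median was 6.70% of the sense gene in WT and 8.78% in hnRNPL-deficient cells over the 53 pairs, with 32 pairs under 10% in WT and 10 above 100%. Among the 15 genes that rose the range in WT was 0.0959% for *Zmiz1os1* to 574% for *Ccpg1os*, and the median went from 7.87% in WT to 19.6% in hnRNPL-deficient cells. 9 of the 15 stood under 10% of the sense gene in WT and 4 in hnRNPL-deficient cells. All but *Ccpg1os* and *Arhgap27os3* stayed below their sense gene per kilobase in hnRNPL-deficient cells as well.

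**Figure D5:**
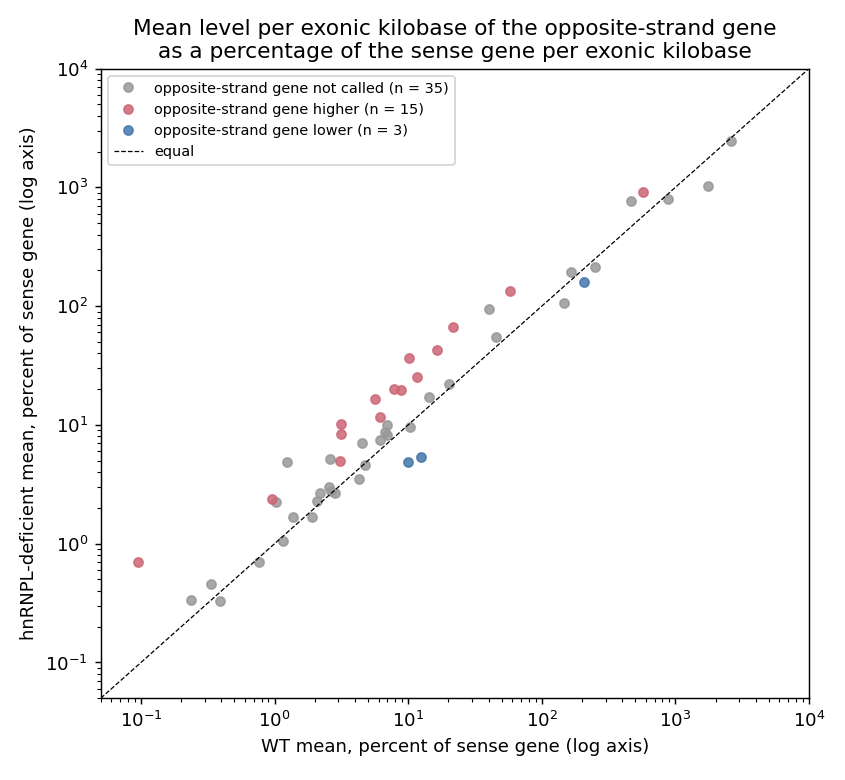
Mean normalized count per exonic kilobase of the opposite-strand gene as a percentage of that of its sense gene, WT (horizontal) against hnRNPL-deficient (vertical), both on log axes, for 53 pairs coloured by the call of the opposite-strand gene. The genes called higher lie above the dashed line of equality, and 32 of the 53 pairs are under 10% in WT.

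The 5 most abundant opposite-strand genes were not called. *Oip5os1*, known as Cyrano, a conserved lncRNA that directs the decay of a microRNA, had 14216, 12888 and 11589 normalized counts in WT libraries and 15492, 12143 and 13098 in hnRNPL-deficient libraries (log2 fold change 0.07 ± 0.12). Its groups overlapped. *Oip5*, which encodes a factor for loading of the centromeric histone and lies 2009 bases from the end of *Oip5os1*, had 781, 513 and 499 against 444, 375 and 315 and was called lower (log2 fold change -0.64 ± 0.21, adjusted p = 0.093, limma), and the ratio rose by 0.71 ± 0.19 (adjusted p = 0.045, limma).

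*Gimap1os* beside *Gimap1*, a gene of the immunity-associated GTPases, had 4893, 2766 and 3020 normalized counts in WT libraries and 3716, 2789 and 3993 in hnRNPL-deficient libraries, so 1 WT library was the highest of all. *Gimap1* had 2340, 2587 and 2241 against 3529, 3161 and 3111, an adjusted p of 0.0286 from limma at a log2 fold change of 0.45 ± 0.10, below the fold for a call. *Brip1os* had 4157, 3199 and 3039 against 3127, 2612 and 2574, and *Brip1*, a DNA repair helicase gene 176 bases away, 3212, 2049 and 1919 against 2037, 1553 and 1325. WT replicate 1 was highest for both genes of this pair, and neither was called (log2 fold changes -0.31 ± 0.14 and -0.53 ± 0.22).

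*Wdr83os* and *Slc7a6os* are protein-coding genes that carry the same kind of name. *Wdr83os*, which encodes Asterix, a chaperone of membrane protein insertion in the endoplasmic reticulum, had 2713, 2478 and 2589 in WT libraries and 2431, 2407 and 2475 in hnRNPL-deficient libraries (log2 fold change -0.09 ± 0.09). *Slc7a6os* ranged from 1412 to 1525 over all 6 libraries (log2 fold change 0.05 ± 0.10). Their sense genes *Wdr83* and *Slc7a6* were at -0.02 ± 0.18 and -0.24 ± 0.09 and were not called. Of 6 tested opposite-strand genes annotated as protein coding, *Ccpg1os* alone was called. Among protein-coding genes outside the set, 7.95% were called higher and 4.86% lower, and 6 genes are too few to set beside these shares.

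Seen from the sense side, 144 of the 256 sense genes were tested. 9 were called higher (6.25%, beside 7.28% of all tested genes) and 12 lower (8.33%, beside 4.08%), and their median log2 fold change was -0.03, the same to 2 decimals as that of all tested genes. These 21 genes had 29 opposite-strand genes, of which 27 (93.1%) were under the mean of 10 and 11 (37.9%) were at 0 in all 6 libraries. Over all 301 opposite-strand genes these shares were 81.4% and 41.9%. The 2 above the mean were *Prox2os* and *Oip5os1*, the latter the most abundant gene of the set.

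The largest fitted rise was that of *Dnm3*, a dynamin gene for membrane scission, with 4.64, 2.59 and 3.06 normalized counts in WT libraries and 86.5, 142 and 163 in hnRNPL-deficient libraries (log2 fold change 4.87 ± 0.38, adjusted p = 0.000281, limma). *Dnm3* passed the mean of 10 only through the hnRNPL-deficient group. *Dnm3os*, a microRNA host transcript inside it, had a single library above 0, at 1.16. *Ptgs2*, the cyclooxygenase 2 gene, had 12.8, 14.7 and 21.4 against 122, 123 and 115 (log2 fold change 2.84 ± 0.29, adjusted p = 0.00105, limma). *Ptgs2os*, which starts 68 bases from *Ptgs2*, and *Ptgs2os2* had no read in any library, so a neighbouring start and a strong rise of the sense gene came with no detected opposite-strand RNA.

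The other sense genes called higher were the NMDA receptor subunit gene *Grin1* (log2 fold change 2.10 ± 0.46), the potassium channel subunit gene *Kcnmb4* (1.60 ± 0.40), the cell polarity gene *Pard3b* (1.54 ± 0.22), the alkylation repair gene *Alkbh3* (0.93 ± 0.12), the transcription factor gene *Lef1* (0.79 ± 0.18), *Zfp286* (0.78 ± 0.24) and *Bcas3* (0.75 ± 0.13). *Grin1* and *Kcnmb4* likewise passed through the hnRNPL-deficient group, with WT libraries at no more than 6.92 and 8.12. The opposite-strand genes of these 7 stood at 0 to 7.21 in every library, the highest being *Lef1os1*, whose groups overlapped.

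Sense genes called lower included the Fanconi anaemia gene *Fancd2*, with 2294, 1711 and 1680 normalized counts in WT libraries and 894, 761 and 588 in hnRNPL-deficient libraries (log2 fold change -1.35 ± 0.19, adjusted p = 0.00374, limma). *Fancd2os* had at most 1.73. The calcium channel gene *Itpr3* had 3670, 4650 and 4705 against 1985, 2478 and 1724 (log2 fold change -1.08 ± 0.16, adjusted p = 0.00464, limma), and *Itpr3os* had at most 5.80. Both sense genes were clearly apart between groups.

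The other 10 sense genes called lower were *Fhad1* (log2 fold change -1.58 ± 0.43), *Tmcc3* (-0.91 ± 0.16), the mucin glycosylation gene *Galnt6* (-0.89 ± 0.15), *Dhx58*, which encodes the RNA sensor LGP2 (-0.79 ± 0.12), *Prdm16* (-0.78 ± 0.23), the apolipoprotein E receptor gene *Lrp8* (-0.73 ± 0.15), *Prox2* (-0.66 ± 0.17), the de novo DNA methyltransferase gene *Dnmt3b* (-0.65 ± 0.16), *Lyrm7* (-0.65 ± 0.14) and *Oip5*. *Galnt6os* had 3.48, 3.46 and 4.59 normalized counts in WT libraries and 0 in all hnRNPL-deficient libraries, so its low counts were apart. *Dhx58os* had 12.8, 7.78 and 5.35 against 4.51, 6.06 and 4.11, and its groups overlapped. *Prox2os* was tested with 32.5, 57.1 and 53.5 against 30.7, 86.8 and 94.6 (log2 fold change 0.44, adjusted p = 0.57, limma), and its groups overlapped. *Lrp8os2* had 2.32, 0.865 and 2.29 in WT and no read in hnRNPL-deficient libraries, so its low counts were apart too.

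The remaining 245 opposite-strand genes were under the mean of 10. At 0 in all 6 libraries, which allows up to 3 reads or 2.29 to 4.11 normalized counts in a library (counting error only), were 126 genes: *Bcas1os1*, *Bcas1os2*, *Bcas3os2*, *Cdrt4os1*, *Cdrt4os2*, *Cep112os1*, *Chn1os1*, *Chn1os3*, *Chrna1os*, *Clnkos*, *Cntrobos*, *Cpeb1os1*, *Csmd2os*, *Ctcflos*, *Ctrcos*, *Cyp4x1os*, *Dbhos*, *Dlx4os*, *Dlx6os1*, *Dlx6os2*, *Dnah2os*, *Dnmt3aos*, *Efhd1os*, *Egfros*, *Emx2os*, *Evx1os*, *Far2os1*, *Far2os2*, *Fgf2os*, *Fhad1os1*, *Fhad1os2*, *Foxl2os*, *Foxo6os*, *Frmpd1os*, *Frs3os*, *Fzd10os*, *Gad1os*, *Gata5os*, *Gldnos*, *Grip1os1*, *Grip1os2*, *Grip1os3*, *Gssos1*, *Has2os*, *Hectd2os*, *Hmgb4os*, *Hnf1aos1*, *Hnf1aos2*, *Hnf4aos*, *Hoxa11os*, *Hoxb5os*, *Hoxd3os1*, *Igf1os*, *Irx3os*, *Kank4os*, *Kcnd3os*, *Kcnmb4os1*, *Kirrel3os*, *Lhx1os*, *Lrrc75aos1*, *Lyrm7os*, *Lyzl4os*, *Maats1os*, *Macrod2os2*, *Mecomos*, *Nell1os*, *Nkx2-2os*, *Nphs1os*, *Nr5a1os*, *Nrg3os*, *Otx2os1*, *Pard3bos2*, *Pard3bos3*, *Pax6os1*, *Pcsk2os2*, *Plekhd1os*, *Plxna4os1*, *Plxna4os2*, *Plxna4os3*, *Ppp2r2cos*, *Pramef12os*, *Prdm16os*, *Prox1os*, *Prss23os*, *Ptf1aos*, *Ptgs2os*, *Ptgs2os2*, *Ptprtos*, *Rab11fip4os2*, *Rap1gapos*, *Rapgef3os1*, *Rapgef4os3*, *Raxos1*, *Runx2os2*, *Runx2os3*, *Sardhos*, *Saxo1os*, *Six3os1*, *Slc13a2os*, *Slc36a1os*, *Slc6a19os*, *Slmapos2*, *Sorbs2os*, *Sox5os2*, *Sox5os4*, *Sox5os5*, *Sox6os*, *Speer4cos*, *Srrm3os*, *Srrm4os*, *Sspnos*, *St8sia3os*, *Tbx3os1*, *Tbx3os2*, *Tlx1os*, *Tmem132cos*, *Tmem147os*, *Tmem74bos*, *Trp73os*, *Ube2uos*, *Unc45bos*, *Vax2os*, *Wt1os*, *Zfp286os*. With a mean above 0 and up to 1, and no library above 5.48, were 73 genes, among them *Abhd11os*, *Adap2os*, *Arhgap20os*, *Arhgap33os*, *Asb17os*, *Atxn7l1os1*, *B9d1os*, *Banf2os*, *Bcas3os1*, *Ccdc34os*, *Ccdc42os*, *Cdr1os*, *Crxos*, *Dgkeos*, *Dio3os*, *Dmrta2os*, *Dnm3os*, *Dtnbos*, *Erich2os*, *Fam219aos*, *Fancd2os*, *Fhitos*, *Grin1os*, *Gssos2*, *Hand2os1*, *Hoxb3os*, *Ift88os*, *Igf2os*, *Kbtbd8os*, *Kcnmb4os2*, *Lrp8os1*, *Lrp8os2*, *Lrrc8dos*, *Macrod2os1*, *Mipepos*, *Myocos*, *Nckap5los*, *Notumos*, *Nr6a1os*, *Nudt12os*, *Pard3bos1*, *Parvaos*, *Pcsk2os1*, *Pip5k1bos*, *Pitpnm2os1*, *Pla2g10os*, *Plet1os*, *Pmepa1os*, *Pnpla1os*, *Prkag2os1*, *Prkag2os2*, *Rapgef4os1*, *Rapgef4os2*, *Rbm46os*, *Recql5os1*, *Rptoros*, *Rsf1os1*, *Rspo4os*, *Runx2os1*, *Sox5os1*, *Spag17os*, *Tmcc3os*, *Tmem51os1*, *Tnk2os*, *Trpc5os*, *Tspan2os*, *Ttc39aos1*, *Tvp23bos*, *Ube4bos2*, *Uchl1os*, *Usp46os1*, *Zfp652os*. With a mean from 1.06 to 9.76, and no library above 17.8, were 46 genes: *Acss2os*, *Aknaos*, *Alkbh3os1*, *Anxa11os*, *Arf4os*, *Arhgap15os*, *Arhgap27os1*, *Arhgap27os2*, *Arl4aos*, *Atxn7l1os2*, *Cdk19os*, *Dhrs13os*, *Dhx58os*, *Dnmt3bos*, *Faddos*, *Far1os*, *Fcnaos*, *Frmd8os*, *Galnt6os*, *Hopxos*, *Il1bos*, *Itpr3os*, *Kcnab3os*, *Kif16bos*, *Lef1os1*, *Lrp8os3*, *Med9os*, *Mxra8os*, *Myadml2os*, *Peak1os*, *Pitpnm2os2*, *Ppp1r18os*, *Rab11fip4os1*, *Rapgef3os2*, *Sap30bpos*, *Scpep1os*, *Slain1os*, *Smc2os*, *Sox5os3*, *Taco1os*, *Tbc1d22bos*, *Tmem150cos*, *Tnfsf13os*, *Ube4bos3*, *Usp46os2*, *Zfhx2os*. Among the 119 genes with some reads, groups were apart upward in 3 (5.55% of all 13809 genes with some reads under that mean), *Sox5os3*, *Aknaos* and *Med9os*, and downward in 6 (3.84%), *Galnt6os*, *Lrp8os2*, *Arhgap27os1*, *Arl4aos*, *Ppp1r18os* and *Tbc1d22bos*. These 9 were picked out by their values.

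Of these 245 genes 114 lay inside the sense gene and 46 started within 1000 bases of its start. When the fit was run with no filter, 4 of the 245 were called: *Sox5os3* higher (adjusted p = 0.0708, limma), and *Galnt6os* (adjusted p = 0.0151, limma), *Tbc1d22bos* (adjusted p = 0.037, limma) and *Lrp8os2* (adjusted p = 0.0948, limma) lower. *Sox5os3* had 4.64, 2.59 and 4.59 normalized counts in WT libraries and 13.5, 14.1 and 17.8 in hnRNPL-deficient libraries, whereas the other 3 were at 0 in all hnRNPL-deficient libraries and at no more than 6.96 in WT. *Sox5os3* was also the 1 gene of the 245 called at a mean of at least 5. Reads from overlapping genes on one strand cannot be told apart, which concerns 43 of the 301 genes and 8 of the 56 tested.

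Antisense and other lncRNAs with other kinds of name were read beside the set, and their layout against neighbouring genes was not analysed here. Of *Tsix*, *Kcnq1ot1*, *Airn*, *Nespas*, *Zfas1*, *Dleu2*, *Hotairm1*, *Gas5* and *Trp53cor1*, 8 were read from the table and *Nespas* was not analysed here. Of these, 7 were tested and only *Trp53cor1* was called (0, 13.8 and 8.41 normalized counts in WT libraries and 316, 339 and 458 in hnRNPL-deficient libraries). *Kcnq1ot1*, a long unspliced nuclear RNA, had 9322, 11731 and 13175 against 10339, 19889 and 40902, so that 1 hnRNPL-deficient library was well above the rest. Of 18 genes of the nuclear exosome and its adaptors (*Exosc1* to *Exosc10*, *Dis3*, *Mtrex*, *Zcchc8*, *Rbm7*, *Zfc3h1*, *Pabpn1*, *Mphosph6* and *C1d*), 17 were tested and none was called. Over all tested genes, 7.28% were called higher and 4.08% lower, so few calls would be found in a list of this size at those shares. *Exosc8* (log2 fold change -0.49, adjusted p = 0.0595, limma), *Dis3* (-0.39, adjusted p = 0.0747, limma) and *Exosc10* (-0.26, adjusted p = 0.0994, limma) were lower at a fold under that of a call. With an adjusted p under 0.1 and no minimum fold, 1406 of all 17640 tested genes were lower too. *Zfc3h1* (0.19), *Zcchc8* (0.16) and *Exosc7* (0.004) had log2 fold changes above 0. The 17 had a median log2 fold change of -0.18 and the 18 had sums of 57595 to 64906 in WT and 52091 to 55776 in hnRNPL-deficient libraries. The sums of the 2 groups did not overlap, and single genes lay apart in this direction for 16.3% of all tested genes. A link between these genes and the opposite-strand genes was not tested.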

How the data were processed

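Both groups held 3 libraries of polyadenylated RNA from sorted B cells of separate mice. Per the study's methods and the labels' processing notes, the authors trimmed reads (fastp 0.23.1), aligned them to mm10 (STAR 2.7.9a) and counted them by strand with featureCounts on GENCODE vM23 genes. The deposited signal values are these counts divided by DESeq2 1.38.2 size factors, so levels are relative within the table. The authors' columns of log2 fold changes, statistic scores, p-values and adjusted p-values were not used.

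Here log2(normalized count + 1) was fitted with limma 3.58.1 (R 4.3.3) with a mean-variance trend and no covariate over genes with a mean of at least 10, adjusted by Benjamini-Hochberg and called at an adjusted p under 0.1 and 1.5-fold, as in the methods. In all columns 100% of values were whole multiples of 1 read (tolerance 0.01), but an automatic test did not accept hnRNPL-deficient replicate 2, so edgeR 4.0.16 and DESeq2 1.42.0 were run on 5 libraries as alternatives. Places and types are from GENCODE vM21, which holds 55240 of 55421 gene IDs; lncRNA leaves out the type TEC. Members, lists and tests were chosen with earlier results of these data known. Named are all called opposite-strand and sense genes with partners, called ratios, the 5 most abundant members and, once, members under the mean. The fit was tested on simulated data. 43 members overlap another gene on their own strand. A few items are not reported here.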

Additional observations from a re-analysis of the deposited data

How the results depend on the processing

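Counts are given as higher and lower in hnRNPL-deficient cells. With 15 and 4 opposite-strand genes called in the report, pseudocounts of 0.5 and 5, a mean of at least 5 or 50, equal totals, quantile normalization, no trend, no minimum fold, edgeR and DESeq2 gave 10 to 16 and 3 to 4. With no filter 12 and 7 were called, under a stricter call (adjusted p under 0.05, at least 2-fold) 9 and 3, and without 1 library 10 to 12 and 1 to 4. Ratios were called for 15 and 2 pairs, for 11 and 6 with no filter, 13 and 1 under this stricter call, 13 and 2 among pairs that overlap or start within 1000 bases, and 12 to 14 and 1 to 2 without 1 library (1 lower without WT replicate 3 or hnRNPL-deficient replicate 1); edgeR and DESeq2 give no ratio. Sense genes were 9 and 12, 5 and 3 under the stricter call, 13 and 21 with no minimum fold, and 7 to 9 and 8 to 12 without 1 library. All genes were 1284 and 719, 610 and 216 under the stricter call, 1766 and 1406 with no minimum fold, and 830 to 1111 and 478 to 696 without 1 library, with the lowest counts without WT replicate 3; edgeR called 1144 and 578 and DESeq2 1180 and 721. Replicate numbers were no pairing in the labels, and deviations of same-numbered libraries correlated at 0.43, 0.32 and 0.07. Those of WT and hnRNPL-deficient libraries with different numbers correlated at -0.458 to 0.305. With a replicate block 18 and 4 opposite-strand genes, 18 and 2 ratios, 12 and 12 sense genes and 1755 and 1018 genes were called. No called opposite-strand gene changed sign in any alternative. Sign changes occurred for genes near no change: *Appbp2* (0.012 with edgeR, 0.018 with quantile normalization, -0.19 to 0.041 without 1 library), *Cep83* (0.00054 with quantile normalization, 0.0060 with equal totals, -0.14 to 0.081 without 1 library), *Phf2* (0.023 with quantile normalization), *Gimap1os* (-0.15 to 0.26 without 1 library), *Oip5os1* (-0.027 to 0.15 without 1 library) and *Sp3* (-0.026 to 0.14 without 1 library). With 3 libraries a group and levels near 10 counts, small changes of many opposite-strand genes may have been missed.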
